A study of Mus musculus with 2 samples.

Results

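The transcription factors that hold mouse embryonic stem (ES) cells in the pluripotent state were followed in the RNA-seq of ES cells and embryonic forebrain. They were chosen by name, as 10 genes: *Pou5f1*, *Nanog* and *Sall4* of the core network, and *Klf2*, *Klf4*, *Klf5*, *Esrrb*, *Tcfcp2l1*, *Zfp42* and *Tbx3* of the naive state. All 10 were found among the 29311 genes listed for both samples (*Tcfcp2l1* is the symbol in the tables of the gene now named *Tfcp2l1*). In total, 2 samples were sequenced, 1 per cell type, and no difference between them has a replicate check. The ES cells were of the E14 line, wild type, and were grown without feeders in serum and LIF. The forebrain was wild type, of strain B6CBAF1/J and stage E10.5, and its total RNA came from single embryos. The libraries were strand-specific and made from rRNA-depleted total RNA, so that transcripts without a poly(A) tail are included. A library of a dissected tissue gives the sum over all its cells, and fewer cells of a type cannot be told apart from less RNA per cell.

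Pluripotency rests on a small circuit of transcription factors that bind each other's regulatory regions. *Pou5f1* (Oct4) and *Nanog* encode homeodomain proteins and *Sall4* encodes a zinc finger protein, and all of them are needed in the inner cell mass or in the epiblast that derives from it. Most of the naive factors act downstream of LIF or Wnt signalling in culture, and several of them can sustain self-renewal when supplied in excess. Most of the circuit is shut down when the epiblast forms the neural plate, whereas some members are used again in other organs.

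The promoters of the members with the highest values in ES cells, *Zfp42*, *Pou5f1* and *Nanog*, are given first, as the sequence context of the most abundant factors. They are RefSeq sequences of build GRCm38.p6, from 250 bases before to 50 bases after the start site, 5′ to 3′ on the strand of the gene. Such an entry was found for 7 members (all but *Sall4*, *Tbx3* and *Klf5*). Capitals mark matches, on either strand, to short motifs of known factors. They are the GC box of Sp factors, GGGCGG, and the motif CCACCC of Krüppel-like factors. The letters CCAAT are those recognised by the factor NF-Y, and TATAAA is the element of the basal machinery. The octamer of POU factors was searched as ATGCAAAT, and also without its last base as ATGCAAA. The last motif was AGGTCA, the half-site of nuclear receptors. The *Zfp42* promoter lies at chr8:43306960-43307259 on the minus strand, the *Pou5f1* promoter at chr17:35505782-35506081 and the *Nanog* promoter at chr6:122707239-122707538, both on the plus strand.
Zfp42: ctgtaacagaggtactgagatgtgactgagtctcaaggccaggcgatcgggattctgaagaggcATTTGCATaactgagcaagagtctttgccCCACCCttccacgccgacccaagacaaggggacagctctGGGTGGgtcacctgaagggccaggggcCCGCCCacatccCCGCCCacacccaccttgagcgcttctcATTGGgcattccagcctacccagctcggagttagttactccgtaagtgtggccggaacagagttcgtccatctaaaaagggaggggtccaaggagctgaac
Pou5f1: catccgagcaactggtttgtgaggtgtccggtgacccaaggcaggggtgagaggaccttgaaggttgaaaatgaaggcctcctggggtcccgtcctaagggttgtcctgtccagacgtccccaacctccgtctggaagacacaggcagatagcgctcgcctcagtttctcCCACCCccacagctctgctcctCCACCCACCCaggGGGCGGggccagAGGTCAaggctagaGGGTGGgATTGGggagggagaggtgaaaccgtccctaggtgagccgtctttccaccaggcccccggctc
Nanog: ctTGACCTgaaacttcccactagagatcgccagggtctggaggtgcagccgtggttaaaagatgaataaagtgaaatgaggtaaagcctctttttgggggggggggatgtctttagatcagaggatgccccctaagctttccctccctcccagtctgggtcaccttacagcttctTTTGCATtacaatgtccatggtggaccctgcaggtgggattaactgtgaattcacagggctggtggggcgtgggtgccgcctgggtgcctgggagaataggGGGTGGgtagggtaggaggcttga

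The same sequences were found in NCBIM37 (mm9), the build of the tables, at bases 44392314 to 44392613 of chromosome 8, 35642727 to 35643026 of chromosome 17 and 122657257 to 122657556 of chromosome 6. There the start site of the sequence was 0 bases from the annotated 5′ end for *Zfp42* and *Nanog* and 5 bases for *Pou5f1*. The full octamer was found in the *Zfp42* promoter, 1 of the 7 members searched, and in 1.74% of the 32851 promoters of the table. The shorter ATGCAAA was found in *Zfp42* and *Nanog*, and in 4.63% of all promoters. The shorter form and the half-site were added after the sequences had been read. A GC box was found in 4 of the 7 (*Zfp42*, *Pou5f1*, *Klf4* and *Klf2*; 35.7% of all promoters) and CCACCC in 5 of the 7 (31.5%). The *Tcfcp2l1* promoter was the only one of the 7 with TATAAA, which 13.6% of all promoters contain. The half-site AGGTCA was found in *Pou5f1* and *Nanog* (16.3%) and CCAAT in *Zfp42* and *Pou5f1* (37.4%). The 9-base site of Esrrb itself (TCAAGGTCA) was not found in the windows of the 7, and occurs in 0.423% of all promoters. The 7 windows had a GC content of 54.3% (*Nanog*) to 74.3% (*Klf4*), compared with a median of 52.7% over all promoters. The shares of all promoters were not matched for GC content. Such matches describe the letters only.

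The value deposited per gene is called RPKM by the authors, and is used here as it stands. Multiplied by exonic length, the low values were spaced by 1.22 (ES cells) and 0.819 (forebrain), a spacing that was taken as the contribution of 1 read. On this scale the ES cell library held 42780608 reads within genes and the forebrain library 59786036. Each interval beside a level is an exact Poisson 95% interval from these reads, for counting error only. RPKM is per length, so that genes can be compared within a sample.

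All 10 factors were at least 4-fold higher in ES cells than in E10.5 forebrain (on log2(RPKM + 1), where 4-fold is a difference of 2), while 11.3% of all listed genes passed the same limit in this direction (8.93% of protein-coding genes, and 10.1% of genes with at least 10 reads in either sample). Their median log2 ratio was 6.93, compared with -0.01 over all listed genes. With a limit of 50-fold, which was not among those planned, 6 of the 10 passed. The same limit was passed by 1.31% of all listed genes, 1.18% of protein-coding genes and 1.58% of genes with at least 10 reads. Together the 10 genes accounted for 245 of every 100000 reads in the ES cell library and for 5.46 in that of forebrain. The ratios differed widely, from 6.33 for *Tbx3* to 741 for *Tcfcp2l1*.

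**Figure D1:**
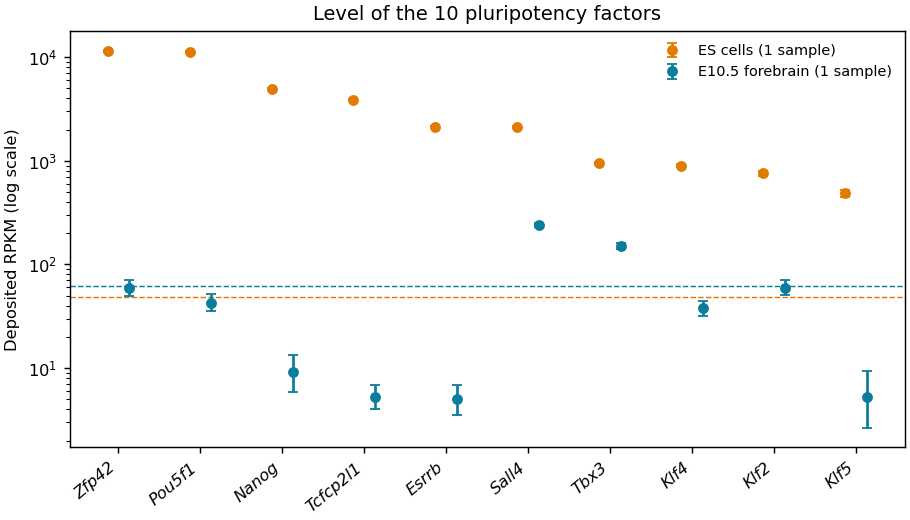
Deposited RPKM (log scale) of the 10 factors in ES cells (orange) and E10.5 forebrain (blue), 1 sample each. Bars are the 95% Poisson intervals and dashed lines the medians of all listed genes (48.9 and 62.4); all 10 orange points lie above the orange line, and the blue points of *Sall4* and *Tbx3* alone lie above the blue line.

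Among the core factors, *Pou5f1* (chromosome 17, 35642982 to 35647721, mm9) had an RPKM of 11244 in ES cells (20777 reads, interval 11092 to 11398) and of 42.9 in forebrain (118 reads, 35.5 to 51.3). The ratio was 262 (exact binomial 95% interval on the reads 219 to 317). The gene encodes the POU factor without which no pluripotent inner cell mass forms. Its longest transcript shares 385 identical bases with a stretch inside the *Rfwd2* locus on chromosome 1, where reads cannot be assigned to either gene, and *Rfwd2* had an RPKM of 207 in ES cells and 349 in forebrain. The part of this stretch in the 42.9 of forebrain was not tested.

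*Nanog* (chromosome 6, 122657507 to 122664651) had an RPKM of 4968 in ES cells (9123 reads, 4867 to 5071) and of 9.13 in forebrain (25 reads, 5.91 to 13.5), a ratio of 544 (368 to 841). The homeodomain protein it encodes can maintain self-renewal without LIF when overexpressed. A copy of the transcript with 97.4% identity over 59.8% of its length lies on the X chromosome (bases 87127651 to 87128972), where no gene is listed.

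*Sall4* (chromosome 2, 168573832 to 168593443), a spalt-family zinc finger factor that binds the *Pou5f1* locus, retained more of its level in forebrain. Its RPKM was 2129 in ES cells (9656 reads, 2087 to 2172) and 239.91 in forebrain (1621 reads, 228 to 252), the highest forebrain value of the 10. The ratio of 8.88 (8.42 to 9.36) was far below those of *Pou5f1* and *Nanog*, and the intervals did not overlap.

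Of the naive factors, *Zfp42* (Rex1, a zinc finger protein related to YY1 that is widely used as a reporter of the naive state) had the highest value of all 10 in ES cells. It lies on chromosome 8 (44380422 to 44392363). The RPKM was 11505 in ES cells (16963 reads, 11333 to 11680) and 58.9 in forebrain (130 reads, 49.4 to 70.2), a ratio of 195 (164 to 233). *Zfp42* also has a copy elsewhere, on chromosome 15 (93509043 to 93510464), with 97.2% identity over 78.4% of the transcript and no listed gene.

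*Tcfcp2l1* (chromosome 1, 120524522 to 120581744) encodes a CP2-family factor that acts below LIF and STAT3. Its RPKM was 3898 in ES cells (29594 reads, 3854 to 3943) and 5.26 in forebrain (60 reads, 4.05 to 6.82), and the ratio of 741 (571 to 964) was the highest of the 10. *Esrrb* (chromosome 12, 87702067 to 87862578), an orphan nuclear receptor and a target of Nanog and of Wnt signalling, had 2140 in ES cells (10601 reads, 2100 to 2181). With 5.01 in forebrain (37 reads, 3.53 to 6.91) it was the lowest of the 10 there, and its ratio was 427 (310 to 607). The intervals of the ratios of *Nanog*, *Tcfcp2l1* and *Esrrb* overlapped each other, and the differences between the ratios were not tested.

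The Krüppel-like factors are zinc finger proteins that bind CACCC and GC-rich sequences and replace each other in part in ES cells. They were the lowest members in ES cells together with *Tbx3*. *Klf4* (chromosome 4, 55540013 to 55545347) had an RPKM of 899 in ES cells (2252 reads, 862 to 936) and of 37.7 in forebrain (141 reads, 31.8 to 44.5). *Klf2* (chromosome 8, 74842932 to 74845555) had 755 in ES cells (1142 reads, 712 to 799.96) and 59.9 in forebrain (135 reads, 50.2 to 70.9). *Klf5* (chromosome 14, 99697910 to 99712624) had 485 in ES cells (683 reads, 449 to 522) and 5.24 in forebrain (11 reads, 2.61 to 9.37). In ES cells *Klf4* was 1.19 times *Klf2* and *Klf2* was 1.56 times *Klf5*. Their ratios were further apart, at 23.9 (20.1 to 28.4) for *Klf4*, 12.6 (10.54 to 15.2) for *Klf2* and 92.5 (51.4 to 186) for *Klf5*, with intervals that did not overlap.

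*Tbx3* (chromosome 5, 120120678 to 120134733), a T-box repressor that supports self-renewal and also patterns limb, heart and hypothalamus, had 955 in ES cells (4195 reads, 926 to 984) and 151 in forebrain (988 reads, 142 to 161). Its ratio of 6.33 (5.90 to 6.79) was the lowest of the 10. *Sall4* and *Tbx3* together made up 63.6% of the summed forebrain RPKM of the 10 factors, whereas *Zfp42* and *Pou5f1* made up 58.4% of the sum in ES cells.

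The order of the levels in ES cells was *Zfp42*, *Pou5f1*, *Nanog*, *Tcfcp2l1*, *Esrrb*, *Sall4*, *Tbx3*, *Klf4*, *Klf2* and *Klf5*, over a 23.7-fold range. Between neighbours the intervals overlapped for *Zfp42* and *Pou5f1*, for *Esrrb* and *Sall4* and for *Tbx3* and *Klf4*. In forebrain the order was *Sall4*, *Tbx3*, *Klf2*, *Zfp42*, *Pou5f1*, *Klf4*, *Nanog*, *Tcfcp2l1*, *Klf5* and *Esrrb*, over a 47.9-fold range. There the intervals of neighbours overlapped from *Klf2* to *Klf4* and again from *Nanog* to *Esrrb*, although those of *Klf2* and *Zfp42* lay above that of *Klf4*. The length that a level is divided by affects the order. With the longest transcript in place of all annotated exons, an alternative chosen after the data were seen, *Pou5f1* had 18832 in ES cells and stood above *Zfp42*.

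Ranked among the 29311 listed genes, the 10 factors lay between percentile 77.9 (*Klf5*) and 98.7 (*Zfp42*) in ES cells. In forebrain they lay between percentile 26.2 (*Esrrb*) and 66.3 (*Sall4*). *Zfp42* and *Pou5f1* were at ranks 382 and 396 in ES cells, and at ranks 89 and 93 among the 19620 protein-coding genes. In forebrain they were at percentiles 49.4 and 46.3, near the middle of the listed genes, although their values were below 0.6% of those in ES cells. Of the 10, 2 (*Sall4* and *Tbx3*) exceeded the median of all listed genes in forebrain, compared with 10 in ES cells. The listed genes include none at 0 in both samples, but genes at 0 in a single sample are ranked in it. These percentiles are thus relative to genes with signal in at least one of the samples.

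**Figure D2:**
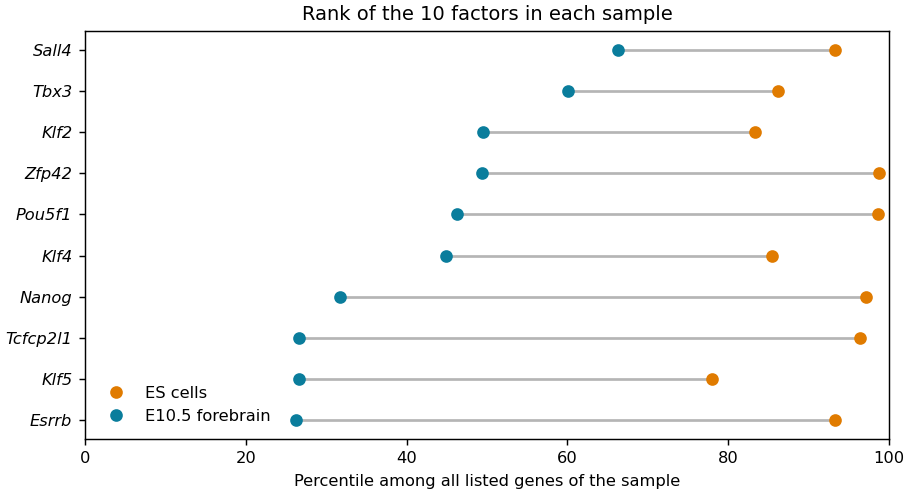
Percentile of each factor among all 29311 listed genes of a sample, in ES cells (orange) and E10.5 forebrain (blue), joined by a grey line. The orange points lie at 77.9 or higher and the blue points at 66.3 or lower, so that the samples do not overlap.

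Expressed as a share of the ES cell value, the forebrain RPKM was 0.135% for *Tcfcp2l1*, 0.184% for *Nanog*, 0.234% for *Esrrb*, 0.382% for *Pou5f1* and 0.512% for *Zfp42*. It was 1.08% for *Klf5*, 4.19% for *Klf4*, 7.93% for *Klf2*, 11.3% for *Sall4* and 15.8% for *Tbx3*. A share below 1% was thus found for 5 of the 6 factors with an RPKM of at least 1000 in ES cells, *Sall4* being the exception. Among all 2666 protein-coding genes with at least 1000 in ES cells, 58 (2.18%) had such a share. The limits of 1% and of 1000 were not among those planned. *Klf5* (1.08%) and *Tbx3* (955 in ES cells) lay close to them. No factor was without reads in forebrain, and the lowest number was the 11 reads of *Klf5*.

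**Figure D3:**
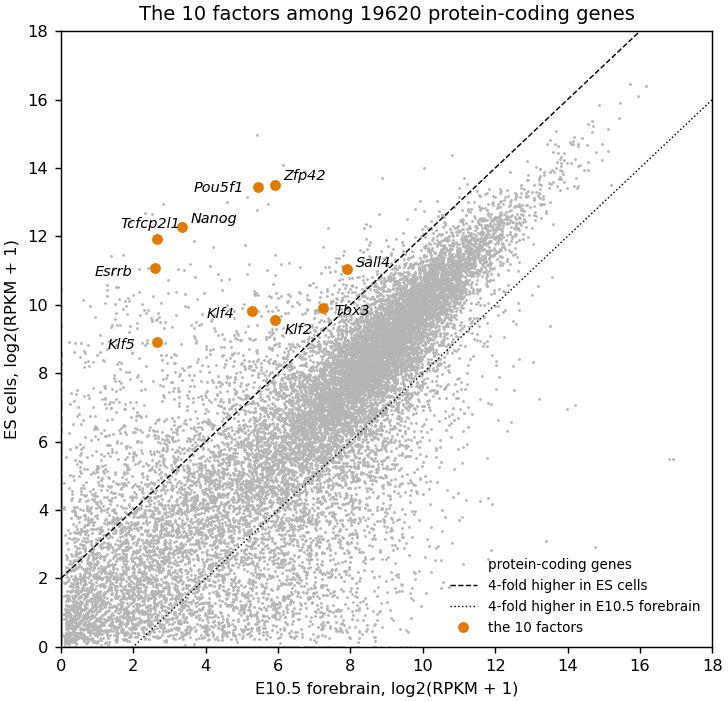
log2(RPKM + 1) of 19620 protein-coding genes in E10.5 forebrain (horizontal) and ES cells (vertical), with the 10 factors in orange. Lines mark a 4-fold difference in either direction; all 10 factors lie above the upper line, with *Tbx3* and *Sall4* nearest to it.

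Each factor except *Nanog* was then set beside the other members of its gene family. A share of the summed RPKM of a family includes the factor, and so follows in part from its own higher value in ES cells. Among POU genes, *Pou5f1* made up 94.6% of the summed RPKM in ES cells and 1.92% in forebrain. The class III genes led in forebrain, where *Pou3f3* had 817 (3055 reads) and *Pou3f4* 539.65 (779 reads). In ES cells *Pou3f3* had 0.80 from 2 reads and *Pou3f4* was listed at 0. Of the 13 POU paralogs, 4 were at least 4-fold higher in forebrain and 2 in ES cells (14.4% and 11.3% of all listed genes).

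*Sall4* made up 86.8% of the summed RPKM of the Sall genes in ES cells, and 15.96% in forebrain. There *Sall2* had the highest value, with 1036 compared with 41.6 in ES cells, a 24.9-fold difference in the opposite direction to *Sall4*. *Sall1* had 244 in ES cells and 171 in forebrain. Likewise, *Esrrb* was the main Esrr gene in ES cells (87.0% of the sum) but not in forebrain (1.82%). *Esrra* differed little, with 320 and 255, and *Esrrg* was listed at 0 in ES cells and had 15.96 (121 reads) in forebrain.

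*Tcfcp2l1* exceeded its 5 relatives in ES cells and lay below all 5 in forebrain. Its closest relatives *Tcfcp2* (330 in ES cells and 437 in forebrain) and *Ubp1* (1382 and 1221) differed less. Of the grainyhead genes, which specify epithelia, *Grhl3* had 296 and 36.9. The relatives of *Zfp42* differed by little as well, *Yy1* with 1180 and 932 and *Yy2* with 149 and 91.1.

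*Tbx3* made up 26.1% of the summed RPKM of T-box genes in ES cells. It was exceeded there by *Mga* (1359 in ES cells and 804 in forebrain), a partner of Max, and by *T* (Brachyury), the regulator of the primitive streak. *T* had 1112 in ES cells (2106 reads) and 2.66 in forebrain (8 reads), the one T-box gene with a higher log2 ratio (on RPKM + 1) than *Tbx3*. The nearest paralog *Tbx2* differed in the opposite direction, with 2.36 in ES cells (7 reads) and 431 in forebrain (1909 reads). Of the 15 T-box paralogs listed, 6 were at least 4-fold higher in forebrain and 2 in ES cells (14.4% and 11.3% of all listed genes).

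In the Klf and Sp family, 5 of 23 paralogs were at least 4-fold higher in ES cells, 3 in forebrain and 15 in neither. Among all listed genes the shares were 11.3% in ES cells and 14.4% in forebrain, and the count for forebrain was near its share. Of the 17 Klf genes, *Klf5*, *Klf4* and *Klf2* were at places 1, 3 and 4 by log2 ratio. Place 2 was that of *Klf9*, with 1724 in ES cells (4607 reads) and 24.1 in forebrain (96 reads), which was also the highest Klf gene in ES cells. The ratio of *Klf9* (71.5) lay within the ratio interval of *Klf5* (51.4 to 186). *Klf4*, *Klf2* and *Klf5* were at places 2, 4 and 8 of the 17 in ES cells, with 11.1%, 9.32% and 5.99% of the summed Klf RPKM. In forebrain they were at places 13, 10 and 16 with 1.36%, 2.16% and 0.189%, and *Klf6* led with 783 (28.3%). Some places were not separated by the Poisson intervals. Those of *Klf4* and *Klf10* (887) overlapped in ES cells, as did those of *Klf5* and *Klf3* (485). In forebrain those of *Klf2* and *Klf15* (58.3) overlapped. *Sp1* and *Sp3*, which are expressed in most cells, had 1327 and 2039 in ES cells and 869 and 2469 in forebrain.

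**Figure D4:**
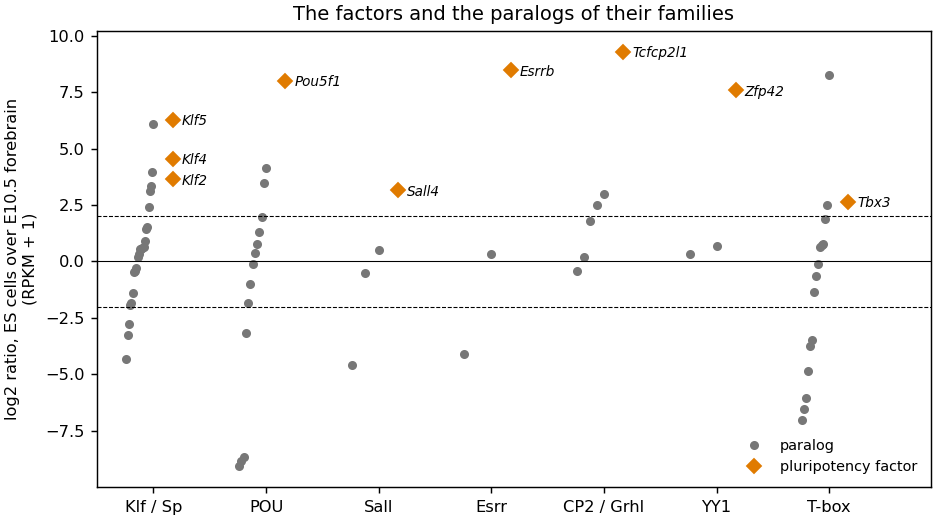
log2 ratio (ES cells over E10.5 forebrain, on RPKM + 1) of the factors (orange diamonds) and their paralogs (grey points) in 7 gene families; dashed lines mark 4-fold. *Tbx3*, *Klf2* and *Klf4* are the factors with a paralog of higher ratio (*T*, *Klf9* and, for *Klf2*, *Sp5*).

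Of 20 other genes of the pluripotency network, all listed, 16 were at least 4-fold higher in ES cells and 0 in forebrain, with a median log2 ratio of 5.16. The shares of all listed genes past the same limit were 11.3% in ES cells and 14.4% in forebrain. The highest log2 ratio (on RPKM + 1) was that of *Tdgf1* (Cripto, a co-receptor of Nodal), with 6432 in ES cells and 4.72 in forebrain. *Fbxo15*, a known target of Pou5f1 and Sox2, had 9165 and 34.0. *Sox2*, the partner of Pou5f1 that is also needed in neural progenitors, had 7182 in ES cells and 2602 in forebrain, a 2.76-fold difference and thus below the limit. *Il6st* (gp130) with 933 and 923 and *Mycn* with 599 and 694 differed least. The primed epiblast is the state that follows the naive one. Of 10 of its genes, 3 were at least 4-fold higher in ES cells and 5 in forebrain (11.3% and 14.4% of all listed genes). Among them *Dnmt3b* had 1515 in ES cells and 234 in forebrain and *Nodal* 704 and 3.32. *Fgf5* was at the limit (log2 ratio 2.04) on few reads, with 5.13 in ES cells (11 reads) and 0.49 in forebrain (1 read). *Otx2* and *Sox11*, both of which continue in neural tissue, had 78.5 and 139 in ES cells and 989 and 3542 in forebrain.

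The labels were compared with markers of the cell types. These lists were chosen with earlier results of these data known, so that this is no independent check. Of 12 forebrain identity genes, 11 were listed (all but *Sox1*). These 11 were all at least 4-fold higher in forebrain, such as *Lhx2* with 877 (listed at 0 in ES cells), *Hes5* with 1199 and *Nes* with 4127. For comparison with this and the next counts, 14.4% of all listed genes were at least 4-fold higher in forebrain and 11.3% in ES cells. The forebrain library also held RNA of other cells of the head. All 8 head mesenchyme markers (summed RPKM 94.7 in ES cells and 8812 in forebrain) and all 6 primitive erythroid markers (357 and 676031) were at least 4-fold higher there. For endothelium, in which *Klf2* and *Klf4* are known to be expressed, 4 of 6 markers were at least 4-fold higher in forebrain (summed 1155 and 2663, with none under 3 reads in either sample). The ES cell sum was mainly that of the other 2, *Pecam1* (551 in ES cells and 317 in forebrain) and *Egfl7* (552 and 767). For surface ectoderm, where *Klf4* and *Klf5* are used, it was 2 of 6, *Trp63* (0.15 and 20.7) and *Krt5* (0.19 and 5.47). Another 2, *Cdh1* (2332 and 66.2) and *Epcam* (1685 and 206), were higher in ES cells. They made up most of the summed 4193 there (617 in forebrain). The part of these other cells of the head in the forebrain values of *Klf2*, *Klf4*, *Klf5*, *Tbx3* and *Sall4* was not tested. In ES cells the 6 markers of primitive endoderm, which arises beside the epiblast, summed to 11.4 (310 in forebrain), the highest being *Gata4* with 3.12 from 10 reads. Of 5 markers of early mesoderm, 2 were at least 4-fold higher in ES cells and 1 in forebrain. The 2 were *T*, with 1112 in ES cells, and *Mixl1*, with 9.05 from 17 reads. *Eomes* had 90.1 in ES cells (306 reads) and 234 in forebrain. *Hprt*, often taken as a reference gene, had 6.63 in ES cells (7 reads) and 1161 in forebrain, and E14TG2a, a common subline of E14, is known to lack it.

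**Figure D5:**
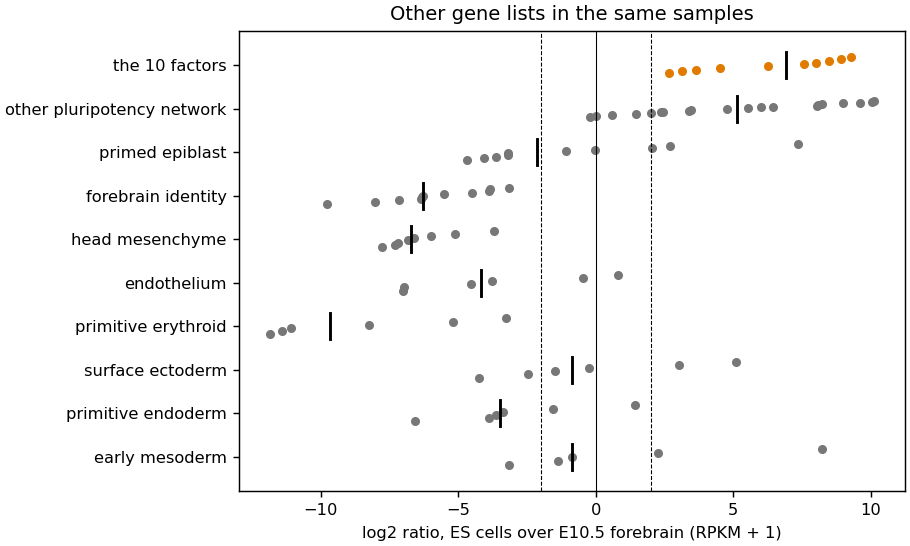
log2 ratio (ES cells over E10.5 forebrain, on RPKM + 1) of each listed gene in 10 gene lists, with a black bar at the median of a list and dashed lines at 4-fold. The 10 factors (orange, median 6.93) and the other pluripotency genes (5.16) lie mainly to the right, and forebrain, mesenchyme and erythroid markers to the left.

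For each factor, the protein-coding genes nearest to it in the plane of both log2(RPKM + 1) values were looked up, a likeness that rests on 2 samples only. *Pou5f1* was nearest to *Fbxo15* (distance 0.44) and *Zfp42* (0.45), and *Tcfcp2l1* to *Tdgf1* (0.73) and *Nanog* (0.78). *Nanog* lay nearest to *Rpl39l* (0.53), and *Esrrb* to *Rpl10l* (0.19) and *Gdf3* (0.43). The shortest distances to a nearest gene were those of *Tbx3* to *Stx3* (0.02), *Klf2* to *Ap1m2* (0.11), *Klf4* to *Ckmt1* (0.12) and *Sall4* to *Bdh1* (0.17). These are the factors with the lowest ratios. *Klf5*, however, lay farther from *Btla* (0.23) than *Esrrb*, of higher ratio, from *Rpl10l*.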

How the data were processed

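The RNA of 2 samples, ES cells and E10.5 forebrain, was analysed. Mapping by the authors was to NCBIM37 (mm9) within HTSstation (its RNA-seq pipeline in the methods, its 4C-seq pipeline in the labels), and Bowtie 0.12.7 is among the tools in the submitters' processing notes. The sources give different read lengths (100 bp in the labels, 50 bp in the methods), and the annotation release is not given in the sources used here. The authors deposited a value per gene called RPKM. For the 29311 listed genes, the exonic length was taken from GENCODE M1 (NCBIM37), which has the same gene ends, and starts that are 1 higher.

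The step of 1 read per kb of exon was found by least squares on genes of up to 2500 bp, and checked on simulated data. Of values under 20 reads, 59.9% (ES cells) and 61.2% (forebrain) lay within 0.05 of a whole read, where 10% would do so by chance, and others lay near simple fractions of a read. The steps, 1.221 and 0.8191, multiply to 1.000, and their inverses are close to the size factors (median of ratios) computed from the inferred reads, 0.816 and 1.22. The RPKM therefore appear to be scaled by such a factor and not by the number of mapped reads, with reads of several places split, although no description of the pipeline was used here to check this. Reads were rounded to whole numbers.

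Ratios are quotients of the RPKM with no pseudocount, and log2 ratios, on which the fold limits were set, used a pseudocount of 1. With 1 sample per cell type no test was made. Intervals of a ratio are exact conditional binomial 95% intervals, which, like the Poisson intervals, cover counting error only. Genes with more than 1 identifier were taken by the higher summed value. The factors and lists were chosen with earlier results of these data known. Genes of lists were named for their 2 highest values in each sample, the largest ratio in each direction, or a value above that of the factor of their family, and not all of these are described. Copies of transcripts were sought in NCBIM37 with blastn 2.17.0 (identity of 90% or more, over 50% or more of the transcript). Alternatives covered the pseudocount, scaling, fold limit, read minimum and genes ranked. A planned comparison of protein sequences was not made. Python 3.11.15, numpy 2.4.6, pandas 2.3.3, scipy 1.17.1 and matplotlib 3.10.9 were used.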

Additional observations from a re-analysis of the deposited data

Results flagged for a closer look

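Some entries of the tables lie within the locus of a factor, were used in no comparison above, and had at least 3 inferred reads, the limit taken for a signal at this depth. A U1 snRNA entry lies on the same strand inside an exon of *Tcfcp2l1* (130 bases of overlap). Its RPKM was 6151 in ES cells (655 reads), where *Tcfcp2l1* had 3898, and 6.30 in E10.5 forebrain, from 1 read. Reads in the shared bases cannot be assigned to either transcript, and the part of *Tcfcp2l1* in the U1 value was not tested. A 5S_rRNA entry on the opposite strand in an intron of *Tcfcp2l1* had 166.96 in ES cells and was listed at 0 in forebrain. *Gm14261*, a lincRNA antisense to *Sall4* (526 bases of exonic overlap), had 135.84 in ES cells and 26.94 in forebrain. *Gm2301*, a processed transcript antisense to *Tbx3* (115 bases of overlap), had 85.72 and 33.3. For both antisense entries the value was higher in ES cells, as for the factor at the locus. Whether reads in the shared bases came from the factor was not tested.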

How the results depend on the processing

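Under 5 other scalings, pseudocounts of 0.1 and 5 and a minimum of 10 reads, the number of factors at least 4-fold higher in ES cells was 10 throughout, and it was 9 with a limit of 8-fold, *Tbx3* being the exception. Their median log2 ratio ranged from 6.54 (pseudocount 5) to 7.11 (housekeeping genes at a median ratio of 1). The 7 housekeeping genes include *Hprt* (6.63 in ES cells and 1161 in forebrain), and this scaling was not recomputed without it. The largest shift between samples was that of division by the summed values, which lowered each log2 ratio by about 0.27. Over 70 recomputed ratios of single factors, 0 changed direction, and the lowest was 2.38, for *Tbx3*. The share of all listed genes that were at least 4-fold higher in ES cells moved from 11.3% to 16.4% with a pseudocount of 0.1 and to 6.80% with a pseudocount of 5, and was 23.3% with a limit of 2-fold and 6.24% with 8-fold. In forebrain the percentiles of all 10 were lower among protein-coding genes only. Scaling by size factors computed from the reads and the use of the longest transcript were chosen after the data were seen. No paired analysis was possible because each cell type has 1 sample. The values of low genes rest on few reads: 3 reads correspond to an RPKM of 1.37 for *Zfp42* in forebrain.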
